A study of Mus musculus with 10 samples.

Results

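Rab GTPases are the small guanine nucleotide-binding proteins that mark the membranes of the cell, and all of them that the arrays could name singly were followed through splenic cDC1s of 4 genotypes. A gene was a member when its symbol was Rab, then a number, then at most 1 letter and 1 further digit, and when a probe set was annotated to that gene alone. The rule found 62 probe sets for 59 genes, out of 21789 probe sets annotated to 1 gene and 19938 genes in all. The choice used names only, and the family was taken up with earlier results of these data known. Symbols such as Rabgef1 or Rab11fip1, which name regulators and effectors of Rabs, were not members and are described separately.

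A Rab binds its membrane through prenyl groups that are added by a dedicated transferase, works while it holds GTP, and is drawn off the membrane by a GDP dissociation inhibitor once GTP is hydrolysed. Exchange factors (GEFs) load GTP, GTPase-activating proteins (GAPs) end the active state, and effectors such as tethers, motors and coat proteins bind the active form. The cDC1 is the dendritic cell that takes up dead cells and presents their antigens on MHC class I, a route called cross-presentation that depends on traffic between phagosomes, endosomes, the Golgi and the plasma membrane. Rab43, a Golgi Rab, has a published part in this route in mouse cDC1s, and Rab7b acts in transport between late endosomes and the Golgi.

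Sorted splenic cDC1s gave the total RNA for 10 Affymetrix Mouse Gene 1.0 ST arrays. WT and Zeb2 KO mice gave 3 arrays each, and Nfil3 Zeb2 DKO mice and Zeb2 Id2 DKO mice 2 each. The 3 mutant genotypes share the loss of Zeb2, a zinc finger repressor. Nfil3 Zeb2 DKO adds the loss of Nfil3, a basic leucine zipper repressor, and Zeb2 Id2 DKO that of Id2, an inhibitor of E proteins. The alleles, any Cre driver, the age of the mice and the gate of the sort are not given in the sources used here, and no label says whether replicate arrays hold RNA of different animals, so each p-value measures the spread between these arrays, which may be technical. Values are log2 of the RMA intensity throughout.

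All 11 cDC1 markers examined, Rab43 and Rab7b among them, were above a silent reference on all 10 arrays. In Zeb2 Id2 DKO, 1 of the 11 was called lower against WT, 1 against Zeb2 KO and 1 against Nfil3 Zeb2 DKO. Of all genes, 1.43%, 0.497% and 0.792% were called in these comparisons. Nfil3 stood at 6.20 and 7.09 on the Nfil3 Zeb2 DKO arrays against 9.98 to 10.77 in WT, and Id2 at 5.01 and 4.98 on the Zeb2 Id2 DKO arrays against 10.15 to 10.43 in WT. The Zeb2 probe set stood at 5.93 to 6.30 in WT and at 5.40 to 6.82 on the arrays labelled as lacking Zeb2. It therefore did not check the label, and no source used here gives its place relative to the deleted part. The array labelled Zeb2 KO replicate 3 stood apart from the rest. It held the highest or the lowest value of the 10 arrays for 32 of the 59 Rab genes (54.2%) and for 43.7% of all genes. Counts of called Rab genes, and the named Zeb2 KO differences that it moved most, are given also without it.

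Most of the family was measurable in WT cDC1s. The silent reference was the 95th percentile of the mean WT level of 1178 olfactory and vomeronasal receptor genes, which sensory neurons use, and lay at 5.89. In every WT array 46 of the 59 Rab genes (78.0%) were above it, against 60.4% of all genes. For the receptor genes themselves the share was 4.33%, which the choice of percentile largely sets in advance. With the 99th percentile, 6.67, as reference, 36 Rab genes were above it. Probe sets differ in how strongly they bind, so levels say whether a gene was detected and are not ranked between genes.

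By compartment, all 9 Rabs of early endosomes were above the reference, among them Rab5a, Rab5b and Rab5c, which govern early endosome fusion. The counts were 9 of 11 for Rabs of recycling and transport to the plasma membrane, 8 of 9 for Rabs of late endosomes, lysosomes and phagosomes, and 11 of 13 for Rabs of the endoplasmic reticulum and Golgi. The count was 6 of 11 for Rabs of regulated secretion and lysosome-related organelles, and 3 of 6 for the remaining Rabs.

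The Rab genes not above the reference in every WT array included Rab3a, Rab3b and Rab3c, which serve synaptic and endocrine vesicles, Rab27b, a secretory Rab, and Rab15, Rab25 and Rab37. Rab18, Rab23, Rab33a, Rab34, Rab39b and Rab42 completed this set of 13. Of these, 7 were not above it on any of the 10 arrays. Just inside the limit, by their lowest WT array, were Rab4a (5.94) and Rab17 (6.04), and just outside it Rab23 (5.81) and Rab3a (5.76).

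**Figure D1:**
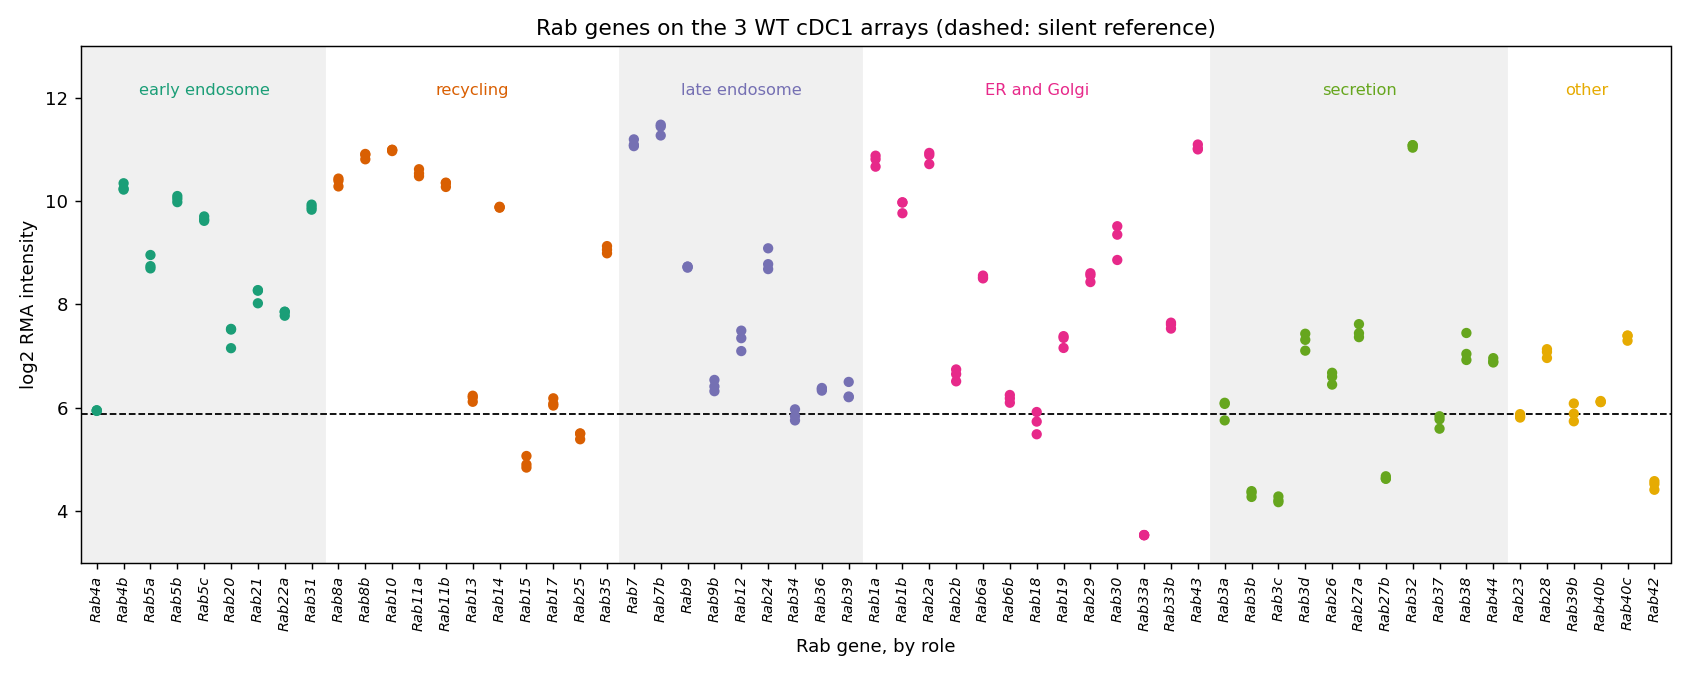
Log2 RMA intensity (vertical axis) of the 59 Rab genes (horizontal axis, grouped by role) on the 3 WT arrays, with 1 point per array and the silent reference of 5.89 as a dashed line. Points of 46 genes lie above the line on all 3 arrays, and each gene's level depends also on its probe set.

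Rab43 and Rab7b were well above the reference in every genotype and passed the test in none of the 6 comparisons. Rab43 stood at 11.00, 11.02 and 11.09 in WT and 11.03, 11.01 and 10.90 in Zeb2 KO, against 10.91 and 10.96 (Nfil3 Zeb2 DKO) and 11.17 and 10.93 (Zeb2 Id2 DKO) in the double mutants. The Nfil3 Zeb2 DKO arrays lay below all WT arrays, and the other mutants overlapped WT. Against WT its log2 differences were -0.05 [-0.24 to 0.13], -0.10 [-0.30 to 0.11] and 0.02 [-0.19 to 0.22] in the Zeb2 KO, the Nfil3 Zeb2 DKO and the Zeb2 Id2 DKO groups, where brackets hold 95% confidence intervals. On the linear scale these intervals reached from 0.810-fold to 1.17-fold of WT.

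For Rab7b the arrays read 11.48, 11.27 and 11.44 in WT and 11.48, 11.49 and 11.22 in Zeb2 KO, against 11.19 and 11.40 (Nfil3 Zeb2 DKO) and 11.63 and 11.59 (Zeb2 Id2 DKO) in the double mutants. Both Zeb2 Id2 DKO arrays were above all WT arrays, and the other mutants overlapped WT. The difference between Zeb2 Id2 DKO and WT was 0.21 [-0.03 to 0.46], with a limma adjusted p of 0.606, and that between Zeb2 Id2 DKO and Nfil3 Zeb2 DKO was 0.31 [0.04 to 0.58], with a limma adjusted p of 0.353.

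Across the whole family, 1 Rab gene was called changed in 1 of the 6 comparisons, at a limma adjusted p under 0.05 over all genes. That gene was Rab38, which fell in Zeb2 Id2 DKO against WT, where 1.43% of all genes were called. No Rab gene was called in Zeb2 KO against WT, where 0.0201% of all genes were, or in Nfil3 Zeb2 DKO against WT (0.00502%). The count was also 0 in Nfil3 Zeb2 DKO against Zeb2 KO (0.00502% of all genes), in Zeb2 Id2 DKO against Zeb2 KO (0.497%) and in Zeb2 Id2 DKO against Nfil3 Zeb2 DKO (0.792%). A moderated F test for any difference among the 4 genotypes called 0 Rab genes and 0.757% of all genes. The 1 call among 59 genes is 1.69%.

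At an unadjusted limma p under 0.05, the number of Rab genes in Zeb2 KO against WT was 7 (11.9%, against 7.39% of all genes), 4 of them higher and 3 lower. Without Zeb2 KO replicate 3 it was 9 (15.3%, against 12.5%), 5 higher and 4 lower. The number was 0 in Nfil3 Zeb2 DKO against WT (4.16% of all genes) and 8 in Zeb2 Id2 DKO against WT (13.6%, against 10.2%), 5 higher and 3 lower. Between mutants it was 3 in Nfil3 Zeb2 DKO against Zeb2 KO (8.5% of all genes), 4 in Zeb2 Id2 DKO against Zeb2 KO (7.35%) and 8 in Zeb2 Id2 DKO against Nfil3 Zeb2 DKO (11.5%). By the F test it was 7 (10.5% of all genes). Arrays of the 2 groups did not overlap for 6 Rab genes in Zeb2 KO against WT (10.2%, against 10.4% of all genes), for 16 in Nfil3 Zeb2 DKO (27.1%, against 23.8%) and for 21 in Zeb2 Id2 DKO (35.6%, against 31.4%).

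The family as a whole stayed near zero difference. The median log2 difference from WT over the 59 genes was -0.0041 for Zeb2 KO, 0.020 for Nfil3 Zeb2 DKO and 0.016 for Zeb2 Id2 DKO, beside medians over all genes of -0.0030, 0.011 and -0.010. Without Zeb2 KO replicate 3 it was 0.0073 for Zeb2 KO. Against Zeb2 KO it was 0.0020 for Nfil3 Zeb2 DKO and 0.029 for Zeb2 Id2 DKO (all genes 0.016 and -0.010), and between both double mutants it was -0.0085 (all genes -0.026). The comparisons against WT share the WT arrays.

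For genes above the silent reference, the intervals bound what the arrays could have missed. The counts below are over all 59 Rab genes, of which 46 were above it in every WT array and 7 on no array. For a gene near or below the reference, a narrow interval need not bound a change in its RNA. In Zeb2 Id2 DKO against WT the 95% confidence interval lay within 2-fold in either direction for 57 of 59 Rab genes, the exceptions being Rab20 and Rab38, and within 1.5-fold for 46. In Zeb2 KO against WT the counts were 58, without Rab30, and 51. In Nfil3 Zeb2 DKO against WT they were 59 and 54.

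**Figure D2:**
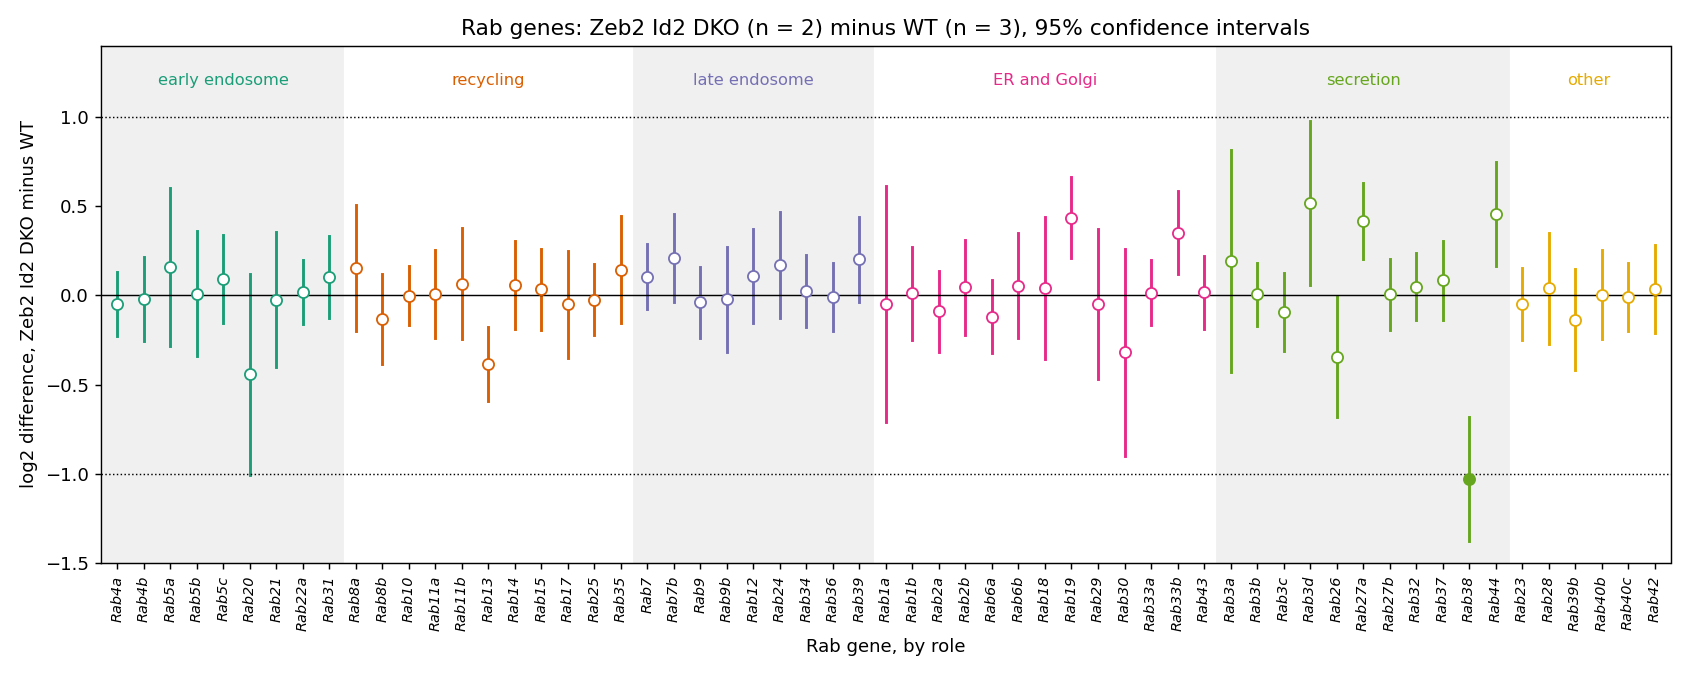
Log2 difference (vertical axis) between Zeb2 Id2 DKO (n = 2) and WT (n = 3) for each of the 59 Rab genes (horizontal axis, grouped by role), with 95% confidence intervals and dotted lines at 2-fold. The filled point, Rab38 at -1.03, is the 1 gene called, and the intervals of 57 genes lie between the dotted lines.

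Rab38, with its close relative Rab32, directs cargo to melanosomes and other lysosome-related organelles. It stood at 6.92, 7.04 and 7.45 in WT and 6.60, 6.75 and 7.03 in Zeb2 KO, against 6.87 and 6.80 (Nfil3 Zeb2 DKO) and 6.13 and 6.09 (Zeb2 Id2 DKO) in the double mutants. Both Zeb2 Id2 DKO arrays were below all 8 others, and the Nfil3 Zeb2 DKO arrays were also below all WT arrays. The fall against WT was 2.04-fold (log2 -1.03 [-1.38 to -0.68], limma adjusted p = 0.0108).

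In Zeb2 KO and Nfil3 Zeb2 DKO the differences of Rab38 from WT were -0.34 [-0.65 to -0.03] and -0.30 [-0.65 to 0.05], with limma adjusted p-values of 0.610 and 1.0. Zeb2 Id2 DKO differed by -0.68 [-1.03 to -0.34] from Zeb2 KO (limma adjusted p = 0.131) and by -0.73 [-1.11 to -0.35] from Nfil3 Zeb2 DKO (limma adjusted p = 0.0893), so a further fall beyond the loss of Zeb2 did not pass the test. The F test over the 4 genotypes gave an adjusted p of 0.0563. In bulk RNA, fewer cells that express Rab38 and less of its RNA per cell cannot be told apart.

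Without Zeb2 Id2 DKO replicate 1 the log2 difference of Rab38 from WT was -1.05 with a limma adjusted p of 0.0944, and without replicate 2 it was -1.01 with 0.122. Rab32, chosen for description after its values were seen, stood between 11.03 and 11.20 on all 10 arrays, and its difference between Zeb2 Id2 DKO and WT was 0.05 [-0.14 to 0.24]. Hps4, a subunit of the exchange factor that loads Rab32 and Rab38 with GTP, differed by -0.19 [-0.38 to -0.01] between Zeb2 Id2 DKO and WT (limma adjusted p = 0.447).

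**Figure D3:**
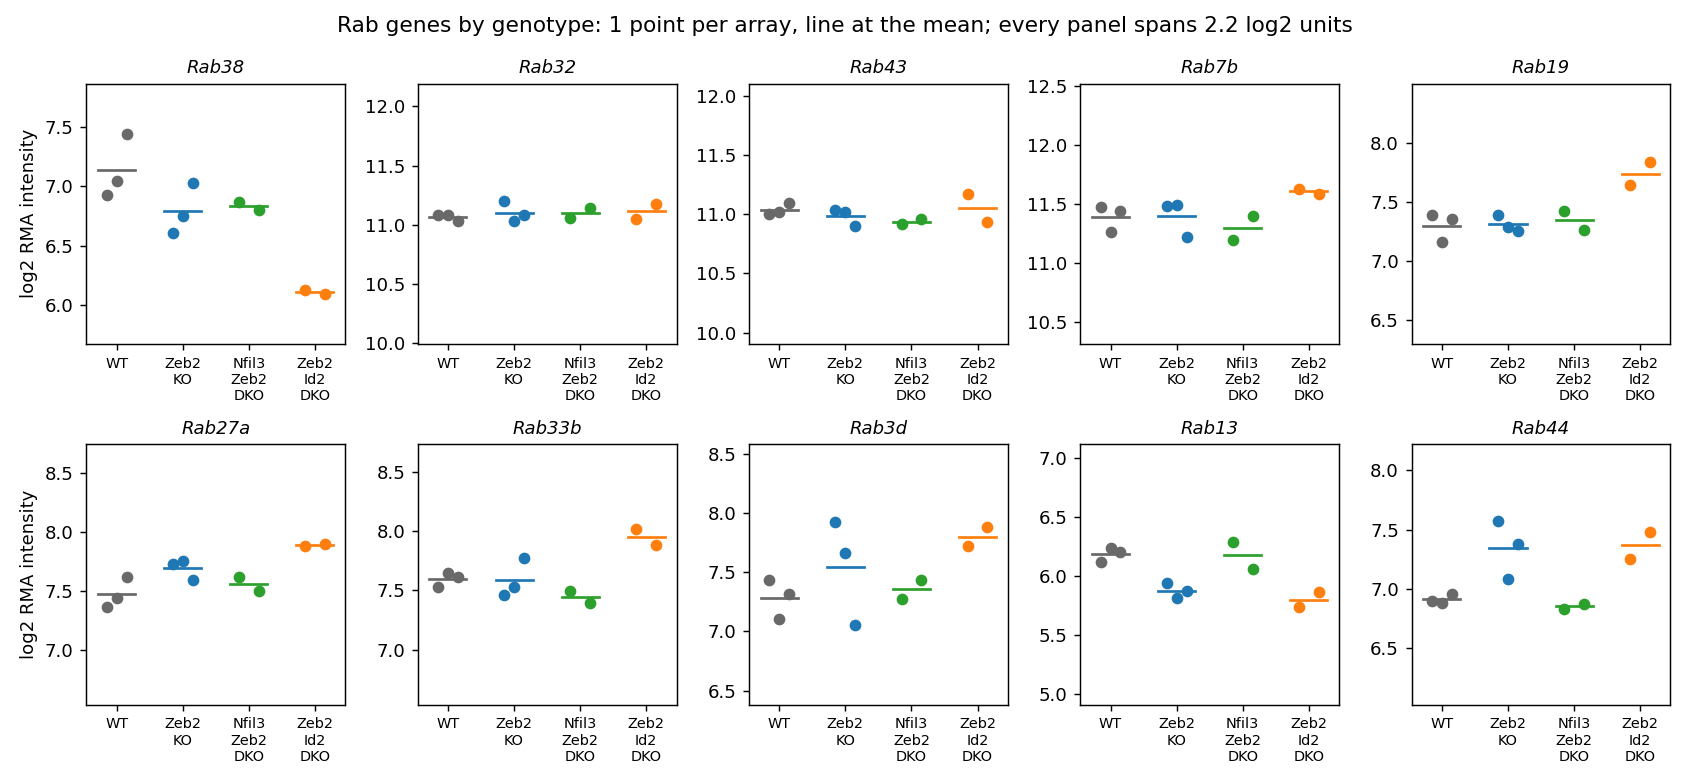
Log2 RMA intensity (vertical axis) by genotype (horizontal axis) for 10 Rab genes, 1 point per array and a line at the group mean, with the same span on every vertical axis. Rab38 is lowest on both Zeb2 Id2 DKO arrays (6.13 and 6.09), while Rab32 stays between 11.03 and 11.20 and Rab43 between 10.90 and 11.17 on all arrays.

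Leaving out Zeb2 KO replicate 3, which enters the shared estimate of the spread but neither mean, raised the calls in Zeb2 Id2 DKO against WT from 1 to 6 Rab genes (10.2%, against 3.81% of all genes). Rab38 and Rab13 were lower, and Rab19, Rab27a, Rab33b and Rab3d higher. No Rab gene was called in Zeb2 KO against WT by limma, where 0.828% of all genes then were and 9 Rab genes had an unadjusted p under 0.05. The calls were 1 in Zeb2 Id2 DKO against Zeb2 KO (Rab33b, higher; 0.742% of all genes) and 2 in Zeb2 Id2 DKO against Nfil3 Zeb2 DKO (Rab33b, higher, and Rab38, lower; 3.53%). The F test called Rab33b, Rab38 and Rab3d (3.55% of all genes). With all 10 arrays none of these except Rab38 passed, and their values follow.

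Of the Golgi Rabs, Rab19 stood at 7.39, 7.16 and 7.35 in WT and 7.39, 7.28 and 7.25 in Zeb2 KO, against 7.42 and 7.26 (Nfil3 Zeb2 DKO) and 7.64 and 7.83 (Zeb2 Id2 DKO) in the double mutants. Its Zeb2 Id2 DKO arrays were above the 8 others. The difference from WT was 0.44 [0.21 to 0.67], 1.35-fold, with a limma adjusted p of 0.0758 over all arrays and 0.0351 without Zeb2 KO replicate 3.

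Rab33b, a Golgi Rab that binds the autophagy protein Atg16l1, gave 7.53, 7.65 and 7.61 in WT and 7.46, 7.53 and 7.78 in Zeb2 KO, against 7.49 and 7.40 (Nfil3 Zeb2 DKO) and 8.01 and 7.88 (Zeb2 Id2 DKO) in the double mutants. Here too the Zeb2 Id2 DKO arrays were the highest, and among the others Zeb2 KO replicate 3 was highest. The difference was 0.35 [0.12 to 0.59] from WT and 0.50 [0.25 to 0.76] from Nfil3 Zeb2 DKO, with limma adjusted p-values of 0.180 and 0.0809. Without Zeb2 KO replicate 3 these p-values were 0.0335 and 0.0120.

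Rab27a docks lysosome-related organelles and secretory granules at the plasma membrane. Its levels were 7.37, 7.44 and 7.62 in WT and 7.73, 7.76 and 7.59 in Zeb2 KO, against 7.62 and 7.50 (Nfil3 Zeb2 DKO) and 7.89 and 7.90 (Zeb2 Id2 DKO) in the double mutants. The Zeb2 Id2 DKO arrays were above all others, and the Zeb2 KO arrays overlapped WT through replicate 3. Zeb2 Id2 DKO differed from WT by 0.42 [0.20 to 0.63], 1.34-fold, with a limma adjusted p of 0.0714 over all arrays and 0.0255 without Zeb2 KO replicate 3.

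Rab3d, a Rab of secretory granules that was described after its values were seen, stood at 7.43, 7.10 and 7.31 in WT and 7.93, 7.66 and 7.05 in Zeb2 KO, against 7.27 and 7.44 (Nfil3 Zeb2 DKO) and 7.72 and 7.88 (Zeb2 Id2 DKO) in the double mutants. Replicate 3 of Zeb2 KO was the lowest of the 10 arrays, and the other Zeb2 KO and the Zeb2 Id2 DKO arrays lay above WT. The difference between Zeb2 Id2 DKO and WT was 0.52 [0.06 to 0.98], with a limma adjusted p of 0.399 over all arrays and 0.0349 without that array.

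Rab13 carries cargo from recycling compartments to the cell surface. It read 6.12, 6.23 and 6.20 in WT and 5.94, 5.82 and 5.87 in Zeb2 KO, against 6.29 and 6.06 (Nfil3 Zeb2 DKO) and 5.74 and 5.86 (Zeb2 Id2 DKO) in the double mutants. All 5 Zeb2 KO and Zeb2 Id2 DKO arrays were below the 5 others, close to the silent reference. The differences from WT were -0.31 [-0.49 to -0.12] in Zeb2 KO and -0.38 [-0.59 to -0.18] in Zeb2 Id2 DKO, with limma adjusted p-values of 0.358 and 0.0865 over all arrays. The latter was 0.0423 without Zeb2 KO replicate 3.

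Rab44, a large Rab with an EF-hand that is found in granule-bearing blood cells, showed the opposite order. Its levels were 6.90, 6.88 and 6.96 in WT and 7.57, 7.08 and 7.38 in Zeb2 KO, against 6.83 and 6.87 (Nfil3 Zeb2 DKO) and 7.25 and 7.48 (Zeb2 Id2 DKO) in the double mutants. Every Zeb2 KO and Zeb2 Id2 DKO array was above every WT and Nfil3 Zeb2 DKO array. Differences from WT were 0.43 [0.17 to 0.69] for Zeb2 KO, -0.06 [-0.35 to 0.23] for Nfil3 Zeb2 DKO and 0.46 [0.17 to 0.75] for Zeb2 Id2 DKO, with limma adjusted p-values of 0.358, 1.0 and 0.163.

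Neutrophil markers had a higher summed level on the same arrays. The summed linear intensity of 12 neutrophil markers, S100a8, S100a9, Ngp and Ltf among them, ranged over 1449 to 1856 on WT arrays, 7143 to 16370 for Zeb2 KO, 2752 to 4549 for Nfil3 Zeb2 DKO and 5728 to 15757 for Zeb2 Id2 DKO. In Zeb2 Id2 DKO against WT, where 1.43% of all genes were called, 7 of the 12 were called higher. In Zeb2 KO against WT, where 0.0201% of all genes were called, 1 of the 12 was. Cxcr2 was above the silent reference on no array. Summed pDC markers (8 genes) were 4735 to 4784 in Zeb2 Id2 DKO against 2834 to 3047 in WT, and erythroid markers (9 genes) 2815 to 3318 against 1265 to 1900. In that comparison 2 pDC markers and 2 erythroid markers were called higher. The other lists went both ways in Zeb2 Id2 DKO against WT. Called lower were 3 of 9 T cell markers, 2 of 10 red pulp macrophage markers and 1 of 8 NK cell markers. The summed red pulp macrophage level was 616 to 684 there against 806 to 1148 in WT, the NK cell level 522 to 526 against 546 to 772, and the T cell level 907 to 991 against 972 to 1187, which overlap. Of 6 monocyte markers 1 was called higher, and their sum was 2873 to 3076 against 2268 to 2516 in WT. No B cell or cDC2 marker was called. The B cell sum (8 genes) was 814 to 834 against 870 to 2224 in WT, and the cDC2 sum (10 genes) 958 to 1045 against 950 to 1086. The part of these other transcripts in the values of Rab44, Rab27a, Rab3d and Rab38 was not tested.

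**Figure D4:**
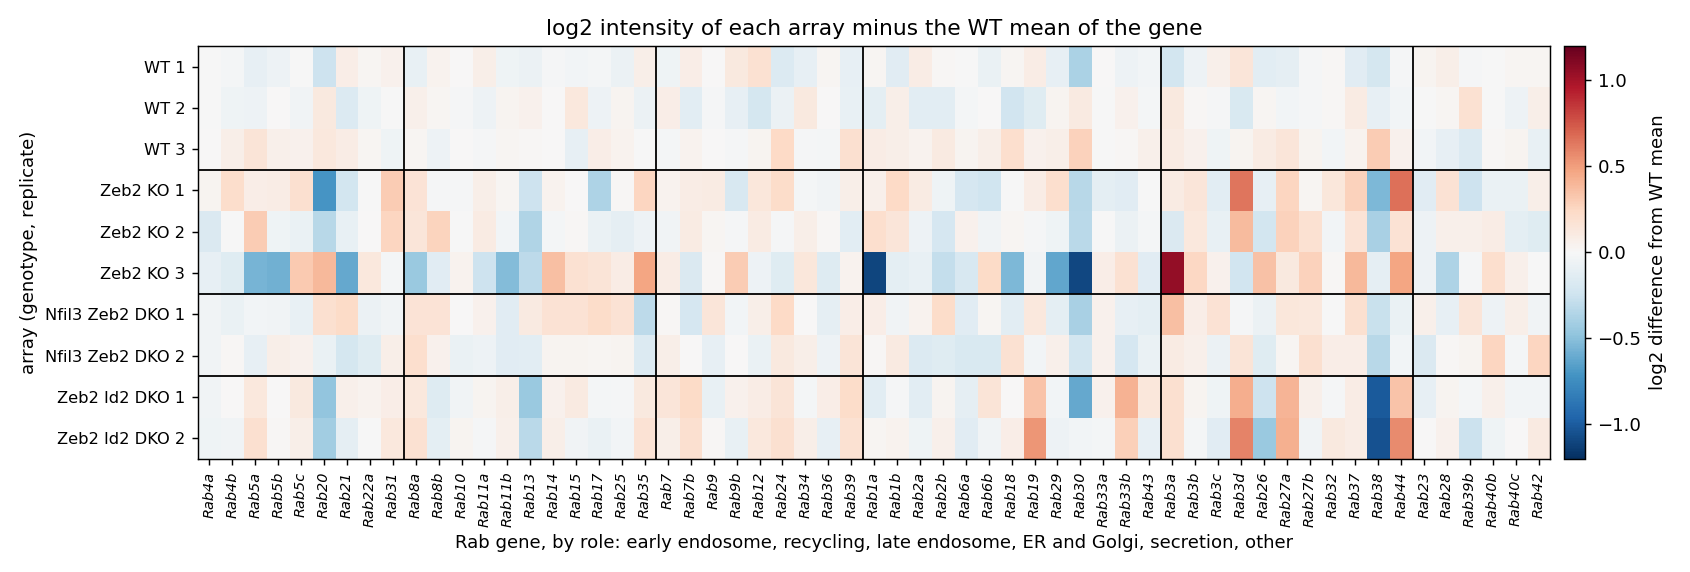
Each array's log2 intensity minus the WT mean of the gene, by colour (red higher, blue lower), for 59 Rab genes (columns, grouped by role) on 10 arrays (rows). The extremes are -1.11 and 1.05, the Zeb2 KO replicate 3 row departs most often, and the Rab38 column is bluest on both Zeb2 Id2 DKO arrays.

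Zeb2 KO replicate 3 lay more than 0.5 from the WT mean for 9 Rab genes, against 0 for Zeb2 KO replicate 2 and 4 for replicate 1. Of all genes, 7.52% did so on replicate 3, 2.04% on replicate 2 and 2.76% on replicate 1, so replicate 3 departed most across all genes too. Zeb2 Id2 DKO replicates 1 and 2 had 2 and 4 such Rab genes (3.88% and 3.62% of all genes). The WT and Nfil3 Zeb2 DKO arrays had 0 (0.206% to 1.47% of all genes). Rab1a, which works between endoplasmic reticulum and Golgi, stood at 9.68 on Zeb2 KO replicate 3 and at 10.66 to 10.98 on the 9 others. Rab3a, a synaptic vesicle Rab, stood at 7.03 there and at 5.76 to 6.34 elsewhere. Rab30, a Golgi Rab, stood at 8.14 there, at 8.91 on both other Zeb2 KO arrays and at 8.86, 9.35 and 9.51 in WT. Its difference of -0.58 [-1.11 to -0.06] between Zeb2 KO and WT was the family's lowest in that comparison, with a limma adjusted p of 0.608. Without that array it was -0.33 [-0.76 to 0.10], and Rab20 was lowest at -0.52 [-0.83 to -0.21] (limma adjusted p = 0.151). Rab1a and Rab3a were picked after their values were seen.

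The 9 Rabs with a published part in cross-presentation were not called in any comparison by the main fit to all 10 arrays. Without Zeb2 KO replicate 3, Rab27a was called higher in Zeb2 Id2 DKO against WT (limma adjusted p = 0.0255), where 3.81% of all genes were called. It was also called in that comparison after a further quantile normalization. Rab43, Rab11a, Rab14, Rab22a, Rab27a and Rab39 were above the silent reference in WT, and Rab3b, Rab3c and Rab34 were not. Their median difference from WT was 0.04 for Zeb2 KO, 0.05 for Nfil3 Zeb2 DKO and 0.02 for Zeb2 Id2 DKO, beside all-gene medians of -0.0030, 0.011 and -0.010. Unadjusted limma p-values were under 0.05 for 2, 0 and 1 of them, beside 7.39%, 4.16% and 10.2% of all genes. In Zeb2 KO without replicate 3 the median was 0.0096 and the number 1.

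Rab11a and Rab14, which return cargo from endosomes, stood at 10.54 ± 0.07 and 9.88 ± 0.01 in WT (SD, n = 3) and differed in Zeb2 Id2 DKO by 0.01 [-0.24 to 0.26] and 0.06 [-0.19 to 0.31]. Rab22a, of early and recycling endosomes, differed by 0.02 [-0.16 to 0.20], and Rab39, of phagosomes and late endosomes, by 0.20 [-0.03 to 0.44]. For Rab34, which acts in phagosome maturation, the difference was 0.03 [-0.18 to 0.23]. Rab3b, at 4.34 ± 0.06 in WT, differed by 0.17 [0.01 to 0.33] in Zeb2 KO, and by 0.14 [-0.02 to 0.29] without Zeb2 KO replicate 3. Rab3c, at 4.22 ± 0.06, differed by -0.06 [-0.25 to 0.14] in Zeb2 KO over all arrays. Both genes were below the silent reference.

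In the main fit the role groups had no further call. In Zeb2 Id2 DKO against WT the 9 early endosome Rabs had a median of 0.01 and 0 with an unadjusted limma p under 0.05, and the 9 late endosome Rabs a median of 0.11 and 0. The 11 recycling Rabs had a median of 0.01 and 1 such gene, and the 13 Rabs of the endoplasmic reticulum and Golgi a median of 0.02 and 2. The 11 secretory Rabs had a median of 0.05 and 5 such genes, Rab3d, Rab26, Rab27a, Rab38 and Rab44, with differences from -1.03 to 0.52 in both directions. Of all genes, 10.2% had such a p in this comparison. In Zeb2 KO against WT, where 7.39% of all genes had one, 5 of the 7 Rab genes with an unadjusted p under 0.05 were secretory Rabs, and the median of the 11 was 0.17. Only 6 of the 11 were above the silent reference in every WT array, and Rab37 and Rab3b, counted among those 5, were not. Without Zeb2 KO replicate 3 they were 5 of 9, with 12.5% of all genes. The median was then 0.10, the value of Rab27b, which was also not above the reference.

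Among single members of these groups, Rab37, a Rab of secretory granules, differed by 0.28 [0.08 to 0.47] between Zeb2 KO and WT, near the silent reference (limma adjusted p = 0.472). Rab26, also of secretory vesicles, differed by -0.35 [-0.68 to -0.01] between Zeb2 Id2 DKO and WT (limma adjusted p = 0.470). Rab35, of fast recycling, stood at 8.75 and 8.89 in Nfil3 Zeb2 DKO, below the 8.99 to 9.53 of the 8 other arrays, and differed by -0.46 [-0.76 to -0.16] from Zeb2 KO (limma adjusted p = 0.394). Leaving out Zeb2 KO replicate 3, the highest array for Rab35, gave -0.34 [-0.58 to -0.09]. Rab21, of early endosomes, differed by -0.31 [-0.65 to 0.03] and Rab2b, of the Golgi, by -0.18 [-0.42 to 0.06] between Zeb2 KO and WT. Without Zeb2 KO replicate 3 these differences were -0.15 [-0.45 to 0.14] and -0.12 [-0.37 to 0.12].

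Differences of Nfil3 Zeb2 DKO from WT ranged from -0.30 to 0.23 over the family. Rab24, linked to autophagy, differed by 0.18 [-0.12 to 0.48], Rab27b by 0.16 [-0.04 to 0.36] and Rab6a, of Golgi transport, by -0.16 [-0.36 to 0.04]. All 59 limma adjusted p-values in this comparison were above the threshold. Rab8b, of transport to the plasma membrane, differed by -0.24 [-0.52 to 0.04] and Rab39b by -0.23 [-0.54 to 0.08] between Zeb2 Id2 DKO and Nfil3 Zeb2 DKO.

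For 3 Rab genes a second probe set was annotated to the same gene. The sets used for Rab11b, Rab2a and Rab5b averaged 10.26, 10.81 and 9.99 over all arrays and the others 7.45, 9.29 and 9.85. In Zeb2 KO minus WT both sets gave -0.18 and 0.03 for Rab11b, -0.02 and -0.09 for Rab2a, and -0.18 and -0.03 for Rab5b. Without Zeb2 KO replicate 3 the sets used gave -0.0030 for Rab11b, 0.02 for Rab2a and 0.02 for Rab5b, and the others -0.04, -0.02 and 0.02. No source used here says whether one of each pair reads a near-identical copy elsewhere, so values of these 3 genes are uncertain.

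Of the machinery that serves the Rabs, 1 gene was called. Of 7 genes of prenylation and membrane extraction, 38 GAPs and 45 effectors, 0 were called by limma in any comparison, and 0, 6 and 5 had an unadjusted p under 0.05 in Zeb2 Id2 DKO against WT, where 10.2% of all genes did and 1.43% were called. Of 35 GEFs, 7 had an unadjusted limma p under 0.05 in that comparison and 1 was called. The called gene was Sbf2, a DENN-domain protein for which Rab21 and Rab28 have been named as substrates. It stood at 8.11, 7.87 and 8.05 in WT and 7.61, 7.56 and 7.79 in Zeb2 KO, against 7.83 and 7.80 (Nfil3 Zeb2 DKO) and 7.46 and 7.50 (Zeb2 Id2 DKO) in the double mutants. Every mutant array was below every WT array. The fall in Zeb2 Id2 DKO against WT was 1.44-fold (log2 -0.53 [-0.75 to -0.31], limma adjusted p = 0.0284), and Rab21 and Rab28 differed there by -0.02 and 0.04.

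The remaining genes of the cycle named by rule were not called with all 10 arrays. Micall2, an effector of Rab13, differed by 0.45 [0.23 to 0.67] between Zeb2 Id2 DKO and WT (limma adjusted p = 0.0578, and 0.0267 without Zeb2 KO replicate 3). From Nfil3 Zeb2 DKO it differed by 0.50 without that array (limma adjusted p = 0.0283). Tbc1d10a, a GAP that acts on Rab27a and Rab35, differed by -0.42 [-0.68 to -0.16] (adjusted p = 0.152), and the TBC-domain gene Tbc1d19 by -0.38 [-0.60 to -0.15]. Golga2, the Golgi matrix protein GM130 that binds Rab1, differed by 0.26 [0.08 to 0.43]. Between Zeb2 Id2 DKO and Nfil3 Zeb2 DKO, Tbc1d10a and Hps4 differed by -0.52 and -0.35, with limma adjusted p-values of 0.105 and 0.118 over all arrays and 0.0497 and 0.0436 without Zeb2 KO replicate 3. Rbsn, an effector of early endosome Rabs picked after its values were seen, differed by 0.30 between Zeb2 KO and WT over all arrays (limma adjusted p = 0.684) and by 0.47 without that array (0.0464).

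Of the genes of prenylation and extraction, Chm, the escort protein that presents Rabs for prenylation, differed by -0.15 [-0.36 to 0.07] between Zeb2 Id2 DKO and WT, and Gdi2, a GDP dissociation inhibitor, by 0.16 [-0.20 to 0.53].

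Zeb2 binds DNA at the letters CACCTG, and E proteins, which Id2 keeps from DNA, bind CANNTG, of which CACCTG is 1 form. Both motifs were searched on both strands in the 250 bases before each RefSeq gene start of GRCm38.p6, where 48 of the 59 Rab genes had an entry. CACCTG was present for 9 of the 48 (18.75%) and for 19.43% of 27025 genes with entries, and CANNTG for 33 (68.75%) and for 69.3%. The members with CACCTG were Rab3a, Rab5c, Rab9, Rab15, Rab17, Rab19, Rab23, Rab25 and Rab27a. Rab38 and Rab7b were among the 11 genes with no entry.

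The 3 genes whose Zeb2 Id2 DKO arrays were the highest of all 10 and which were called without Zeb2 KO replicate 3 are shown, because they were high on the same arrays. The windows are chr6:39381103-39381352 (plus strand) for Rab19, chr9:73044560-73044809 (plus strand, the upstream of 2 starts) for Rab27a and chr3:51483716-51483965 (plus strand) for Rab33b. Capitals mark CACCTG, or CAGGTG where it is read on the other strand.
Rab19: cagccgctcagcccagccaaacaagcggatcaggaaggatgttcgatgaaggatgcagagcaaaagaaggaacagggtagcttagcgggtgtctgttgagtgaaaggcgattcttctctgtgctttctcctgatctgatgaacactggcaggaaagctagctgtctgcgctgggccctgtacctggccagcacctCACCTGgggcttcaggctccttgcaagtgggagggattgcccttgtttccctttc
Rab27a: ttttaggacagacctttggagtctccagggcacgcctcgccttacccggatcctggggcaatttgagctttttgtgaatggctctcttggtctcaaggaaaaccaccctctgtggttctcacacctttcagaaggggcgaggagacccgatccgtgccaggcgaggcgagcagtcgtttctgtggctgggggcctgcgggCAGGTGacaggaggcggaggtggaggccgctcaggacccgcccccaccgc
Rab33b: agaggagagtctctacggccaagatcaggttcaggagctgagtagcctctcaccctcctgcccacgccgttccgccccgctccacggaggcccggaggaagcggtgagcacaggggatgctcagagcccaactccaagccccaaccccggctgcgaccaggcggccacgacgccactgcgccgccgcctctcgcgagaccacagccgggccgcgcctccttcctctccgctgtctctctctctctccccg
The windows of Rab19 and Rab27a shown each hold 1 CACCTG, on opposite strands, and that of Rab33b none. CANNTG, the CACCTG matches included, occurs 2 times for Rab19, 1 time for Rab27a and 0 times for Rab33b. The window of the other start of Rab27a, not shown, holds 6 CANNTG and 0 CACCTG. The share of Rab genes with a match is near that of all genes, and a match is a description of these letters, not a binding site.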

How the data were processed

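RMA in Affymetrix Expression Console was applied by the authors to all 10 arrays (Affymetrix Mouse Gene 1.0 ST), per the submitters' processing notes. Per the labels' protocols, cDC1s came from digested spleens, and biotinylated cDNA was prepared with the NuGen Ovation Pico kit. The deposited values are linear RMA intensities between 5.05 and 16019, and log2 of them was taken here. No source used here names the annotation the authors used. Probe sets were named from GEO's platform annotation, of which the 62 Rab probe sets all matched RefSeq by gene identifier. The number of arrays limits the precision.

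Of several probe sets of a gene, that with the highest mean over the 10 arrays stood for it. In limma 3.58.1 (R 4.3.3) 1 mean for each genotype was fitted, with all 10 arrays and 19938 genes, with 6 residual degrees of freedom. All 6 pairs of genotypes were compared, p-values were adjusted by Benjamini-Hochberg over all genes, and a gene was called at an adjusted p under 0.05. The script was checked on simulated data. Levels are means ± SD.

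The members, their role lists, the lists of the Rab cycle and the markers were chosen with earlier results of these data known. Named were Rab43 and Rab7b, each called Rab, the 3 Rabs with the smallest p per direction and comparison, the cross-presentation list, and the Rab with the smallest F test p in each role list (26 genes in all). From each list of the Rab cycle, called genes and the 2 with the smallest F test p were named. Alternatives were the mean of a gene's probe sets, a filter on dim genes, an offset of 16, a further quantile normalization, trended and robust variances, a fit of the compared arrays alone, the replicate number as a block, and leaving out each array. Of 13 same-numbered pairs of arrays, 1 correlated above 0.1 in deviations from the genotype means. In genotypes with 2 arrays these deviations are exact opposites, so the 13 are not separate checks and cannot exclude a shared batch. The numbers were not taken as pairs.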

Additional observations from a re-analysis of the deposited data

How the results depend on the processing

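The fall of Rab38 in Zeb2 Id2 DKO against WT kept its direction under every alternative run, with log2 differences from -1.13 to -0.87, and passed the limma threshold in all except those without 1 of the Zeb2 Id2 DKO arrays (adjusted p = 0.0944 and 0.122). The kept direction was largely fixed in advance. Trended variances, the filter on dim genes or leaving out a Zeb2 KO array, for example, cannot change this difference. Both Zeb2 Id2 DKO arrays also lay below all WT arrays, so no left-out array could turn its sign. All 96 recomputed family medians of differences moved by less than 0.0752, the SD of the family's median level between arrays of a genotype. The recomputed medians lay between -0.015 and 0.037, so a move as large as this bound was unlikely from the start. Of 121 recomputed counts, 107 stayed within 1.5 times. Most of the 107 were counts of called Rab genes that were 0 and stayed 0, for which a ratio has no meaning. The 14 others are also counts of called Rab genes. In Zeb2 Id2 DKO against WT the count was 1 and became 2 after a further quantile normalization (Rab27a, Rab38) and 2 with the compared arrays alone (Rab38, Rab44), and it was 0 to 6 with 1 array left out. In Zeb2 Id2 DKO against Nfil3 Zeb2 DKO it was 0 and became 5 with the compared arrays alone (Rab20, Rab33b, Rab38, Rab3d, Rab44), 1 with the replicate block (Rab38) and 0 to 2 with 1 array left out. By the F test it was 0 and became 1 with trended and robust variances, 1 with the replicate block (Rab38 in both) and 0 to 3 with 1 array left out; in Zeb2 Id2 DKO against Zeb2 KO it was 0 to 1. Among the fits with 1 array left out, the highest of these counts came without Zeb2 KO replicate 3. Beyond what those fits leave out, the cause was not tested. The F test was not run on the compared arrays alone. The replicate numbers are a shared label. In deviations from the genotype means, 2 of 10 arrays correlated best with their own number, which cannot exclude a shared batch. With 2 or 3 arrays per group, small differences stay undetected, and leaving out a Zeb2 Id2 DKO or Nfil3 Zeb2 DKO array assumes that the lone array varies like the other groups.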
